A study of Homo sapiens with 10 samples.

Results

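The genes described here sense bacterial and viral products at the cell surface or in endosomes: the Toll-like receptors TLR1 to TLR6, the lipopolysaccharide (LPS) co-receptors CD14 and LY96, and the adaptors MYD88 and TIRAP. They were chosen by name, as every spot of the array whose platform annotation gives 1 of these 10 symbols. This gave 33 of the 45220 spots and 10 of the 18334 genes measured. RNA came from A549 cells, an established line of human lung adenocarcinoma that keeps features of type II cells of the alveolus. Cells of 5 cultures were grown in rotating wall vessels (RWV), slowly turning, fluid-filled chambers that keep cells suspended at low shear. The other 5 cultures were conventional monolayers (Mono). Both groups were, per the labels, untreated A549 cells kept in a serum-containing, glutamine-supplemented Dulbecco medium, and the labels name no microbial ligand in either. Each culture was a biological replicate and was hybridised, labelled with Cy3, to its own single-colour array.

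Toll-like receptors bind microbial molecules through an outer leucine-rich repeat domain and signal through an inner TIR domain. LPS is passed to CD14, which lacks a signalling domain, and from there to the complex of TLR4 with LY96 (also called MD-2). TLR2 pairs with TLR1 or TLR6 to bind bacterial lipopeptides, TLR5 binds flagellin, and TLR3 binds double-stranded RNA in endosomes. All of these except TLR3 signal through MYD88, which TIRAP helps to recruit below TLR2 and TLR4. In airway epithelium this pathway is known for inducing neutrophil chemokines after bacterial contact.

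Of the 10 genes, 4 were higher in RWV cultures and 0 were lower. The 4 were CD14, LY96, MYD88 and TLR3 (limma, Benjamini-Hochberg adjusted p below 0.05 over all 18334 genes). Of all genes, 15% passed in that direction and 15.2% were lower, so that 30.1% passed in all. Of these calls 49.6% were rises, and without normalisation between arrays 29.2% were, with CD14 and LY96 the genes of the 10 that still passed and a median over all genes of -0.13. The median log2 difference was 0.44 over the 10 genes and 0.01 over all genes. TLR2, TLR4 and TLR5 lay below a normalised intensity of 100 on all 10 arrays, the level under which a spot is called dim here. Of all genes, 25.3% did so. Among the 13689 genes with a spot at 100 or above on at least 1 array, 19.5% were higher and 20% lower. Values below are intensities after quantile normalisation over the 10 arrays. Differences are RWV minus Mono on the scale of log2(normalised intensity + 50), which understates the change of dim genes, with the standard error of the fit and n = 5 arrays a group. Because each spot binds its target with its own efficiency, levels are compared between groups and not between genes.

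**Figure D1:**
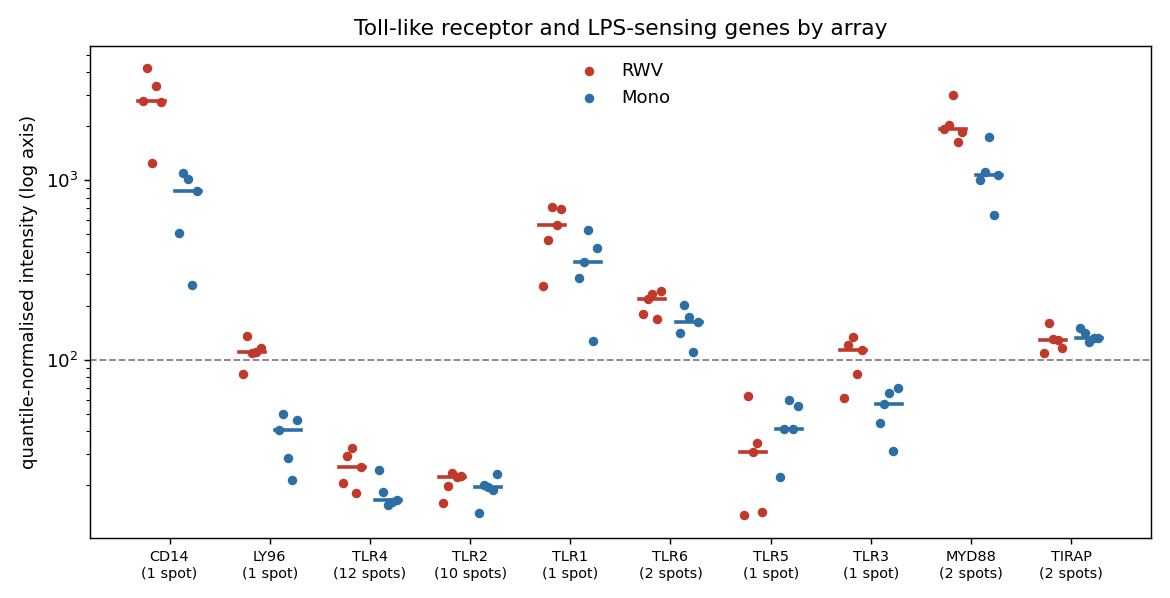
Quantile-normalised intensity (log axis) of the 10 genes on each of the 5 RWV arrays (red, left of each pair) and 5 Mono arrays (blue, right). A point is 1 array, averaged over the spots of the gene, a bar is the group median, and the dashed line marks an intensity of 100. For CD14 and LY96 all RWV points lie above all Mono points, TLR2, TLR4 and TLR5 lie below the line on every array, and heights of different genes are not comparable.

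The arrays differed in overall brightness before normalisation, with median spot intensities of 114 to 138 in RWV and 122 to 184.5 in Mono. Of 8 epithelial markers 0 were dim throughout, 2 were higher in RWV (KRT19 by 1.55 and ELF3 by 1.16 on the log2 scale), 1 was lower (KRT7, -1.70) and 5, KRT18 among them, did not pass the test. ESRP1, also among those 5, was below 100 on every RWV array (23.4 to 99.1) and ran from 22.1 to 184.9 in Mono. No value of the 33 spots came near saturation (taken as 60000), the highest deposited intensity being 3820. Since CD14 and several receptors are abundant in macrophages, 15 leukocyte markers were listed, of which 14 were measured. Of these 0 were higher in RWV, 1 (CD53) was lower, and 9 lay below 100 on all arrays, CD53 among them. Of all genes 15% were higher and 15.2% lower. CD53 lay at 3.20 to 15.4 in RWV and 14 to 38.5 in Mono. The summed intensity of the 14 leukocyte markers was 888 to 1551 in RWV and 875 to 1811 in Mono. FCER1G made up much of it, at 493 to 982 in RWV and 444 to 1122 in Mono. The pan-leukocyte gene PTPRC lay at 22.3 to 28.0 in RWV and 14.2 to 110.8 in Mono, and the macrophage receptor gene CSF1R at 3.70 to 28.5 in RWV and 6.90 to 46.9 in Mono. The myeloid factor gene SPI1, dim on all arrays, lay at 16.6 to 64.4 in RWV and 6.40 to 19.6 in Mono and did not pass (limma adjusted p = 0.052). ITGB2, the beta chain of the leukocyte integrins, was not among the 15 and was higher in RWV (log2 difference 1.47 ± 0.19, limma adjusted p = 0.00021). In bulk RNA, fewer cells of a type and less RNA per cell cannot be told apart. In lists of 6 fibroblast and 5 endothelial markers, 0 were higher in RWV and 1, COL1A1, was lower (limma adjusted p = 0.049). COL1A1 lay at 57.7 to 90.5 in RWV and 79.5 to 189.7 in Mono. Of the fibroblast markers 3, and of the endothelial markers 5, were below 100 on all arrays. The same shares of all genes, 15% and 15.2%, apply beside the epithelial, fibroblast and endothelial counts.

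The promoters of CD14, MYD88 and TLR3 are given here because these are the genes that rose and have an entry in the promoter table. Each run of 270 bases reads 5′ to 3′ on the gene's strand, from 250 bases before the transcription start used by RefSeq to 20 bases after it, in build GRCh38.p14. Capitals mark a match to the core of the interferon-stimulated response element (GAAA, any 2 bases, then GAAA) in MYD88 and TLR3, and to the AP-1 motif (TGANTCA) in CD14.
MYD88, chr3:38138411-38138680, plus strand: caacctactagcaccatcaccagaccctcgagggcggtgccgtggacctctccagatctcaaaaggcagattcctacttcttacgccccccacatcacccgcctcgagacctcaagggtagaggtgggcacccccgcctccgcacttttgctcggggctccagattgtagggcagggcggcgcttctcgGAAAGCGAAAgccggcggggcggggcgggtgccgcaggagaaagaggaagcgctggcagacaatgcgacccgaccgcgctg
TLR3, chr4:186068906-186069175, plus strand: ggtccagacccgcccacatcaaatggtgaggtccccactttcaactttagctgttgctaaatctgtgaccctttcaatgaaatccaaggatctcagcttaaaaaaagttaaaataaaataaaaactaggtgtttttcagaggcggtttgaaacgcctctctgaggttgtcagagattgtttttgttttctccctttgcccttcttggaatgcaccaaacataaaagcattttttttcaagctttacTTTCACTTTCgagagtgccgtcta
CD14, chr5:140633156-140633425, minus strand: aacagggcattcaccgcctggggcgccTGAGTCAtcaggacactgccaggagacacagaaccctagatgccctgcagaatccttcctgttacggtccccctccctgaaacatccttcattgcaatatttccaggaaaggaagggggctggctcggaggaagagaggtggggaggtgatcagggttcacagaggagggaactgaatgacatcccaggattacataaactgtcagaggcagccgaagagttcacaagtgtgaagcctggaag

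Motifs were searched on both strands of RefSeq windows of 300 bases, 250 before to 50 after the start, which the table holds for 7 of the 10 genes and not for TLR1, LY96 and TIRAP. The search also covered the GC box (GGGCGG), the C/EBP motif (TTGCNNAA) and the NF-kB consensus, and the motifs were picked with the results and sequences known. The interferon element core was found in 2 of the 7 windows, MYD88 at 61 to 52 bases before the start and TLR3 from 4 before to 6 after it, and in 3.57% of all 35116 windows. In TLR3 the match runs on the opposite strand. An AP-1 match was found in CD14, 223 to 217 bases before the start, and in 7.71% of all windows. A GC box was found in 5 of the 7 (TLR2, TLR3, TLR4, TLR5 and MYD88) and in 45% of all windows. The C/EBP motif was found in TLR3 and in 10.5% of windows, and the NF-kB consensus in 0 of the 7 and in 5.91% of windows. In MYD88 neighbouring GC boxes shared 1 base, 39 before the start, and the interferon element core overlapped no other listed motif. In CD14 the start used by the table lies inside the outer bounds of the gene. These are matches of letters, and no binding was measured.

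CD14, the membrane-anchored protein that hands LPS to TLR4 and LY96, had the largest difference of the 10 genes. Its 1 spot read 2775, 4198, 1250, 3328 and 2713 on RWV arrays 1 to 5, against 511, 1100, 1018, 260 and 872 on Mono arrays 1 to 5. All RWV values lay above all Mono values, and the lowest RWV array (3) stood close to the highest Mono array (2). Groups separated in this direction in 10.9% of all genes. The log2 difference was 1.91 ± 0.38, or 3.75-fold on that scale (limma adjusted p = 0.0029). Without RWV 3 it was 2.18 and without Mono 4, the lowest Mono array, it was 1.59, both past the test.

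LY96, the secreted partner that gives TLR4 its LPS pocket, stood near the dim level. Its spot read 83.5, 136.5, 109.8, 110.2 and 116.9 on the RWV arrays, against 40.6, 50.1, 28.3, 21.6 and 46.2 on the Mono arrays. All Mono values and 1 RWV value were below 100. The groups did not overlap, with RWV higher, as in 10.9% of all genes. The log2 difference was 0.89 ± 0.13 (limma adjusted p = 0.00033). With Mono below the dim level only a bound can be given for the fold, the RWV mean against a Mono level set to the higher of 100 and its own signal. LY96 was thus at least 1.07-fold higher in RWV, with measured means of 111.4 ± 19.0 in RWV and 37.4 ± 12.1 in Mono (SD, n = 5 each). Since LY96 is dim, its log2 difference moved with the constant added before the logarithm, to 1.27 with 16 and 0.39 with 200, both past the test.

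TLR4, the signalling receptor for LPS, was below 100 at all of its 12 spots on all arrays. Its 120 single values ran from 0.50 to 96.0 in RWV and 2.10 to 42.2 in Mono. Averaged over the 12 spots, the arrays lay between 18.1 and 32.1 in RWV and between 15.5 and 24.3 in Mono. The SD between the 12 spots of an array was 8.13 to 26.2 in RWV and 8.51 to 11.1 in Mono, of the same order as the readings. No fold is given for a gene that is dim in both groups, and it did not pass the test (limma adjusted p = 0.38). Of the 12 spots taken singly, 1 passed the test with 24.7, 89.4, 42.0, 36.1 and 27.8 in RWV and 21.3, 21.4, 8.70, 14 and 8.90 in Mono, and the other 11 did not.

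TLR2, the shared receptor for lipopeptides, was likewise dim at all 10 of its spots. Single values ran from 0 to 74.3 in RWV and 2.70 to 59.9 in Mono. Array means over the 10 spots were 16 to 23.6 in RWV and 14.1 to 23.0 in Mono, and 0 of the 10 spots passed the test. The sign of the spot differences was mixed, with 7 above and 3 below 0. TLR5, the flagellin receptor, had 1 spot, at 13.6, 62.7, 30.7, 34.4 and 14.3 in RWV, against 22.2, 41.1, 59.9, 41.1 and 55.4 in Mono. All 10 readings were below 100, the groups overlapped, and TLR5 did not pass the test (limma adjusted p = 0.37).

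TLR1 and TLR6, the partners of TLR2, were above the dim level as gene means on every array. TLR1 read 259, 465, 706, 560 and 694 in RWV, against 286, 349, 529, 127 and 417 in Mono. The groups overlapped, with RWV 1 below 4 of the 5 Mono arrays, and the log2 difference of 0.62 ± 0.32 did not pass the test (limma adjusted p = 0.18). Without Mono 4 the difference of TLR1 was 0.35, and it was 0.20 in arrays 1 to 3 and 1.31 in arrays 4 and 5. Averaged over its 2 spots, TLR6 was at 179.7, 216.7, 233.6, 167.8 and 240.9 in RWV, against 140.5, 201.7, 173.0, 110.7 and 162.8 in Mono. TLR6 had a log2 difference of 0.32 ± 0.14 (limma adjusted p = 0.11). Its spots gave 0.44 and 0.20, neither past the test, and 1 reading, Mono 4 at 78.3 on the spot with the larger difference, was below 100. The receptors resemble each other in sequence, and cross-hybridisation between their spots was not tested. In RefSeq (GRCh38.p14) TLR10, TLR1 and TLR6 stand next to each other in that order on chromosome 4, and TLR10 was below 100 on all arrays, at 21.3 to 81.7 in RWV and 1.70 to 39.7 in Mono (limma adjusted p = 0.23).

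TLR3, the endosomal receptor for double-stranded RNA, read 61.1, 121.1, 133.5, 83.5 and 114 in RWV, against 44.2, 56.5, 65.0, 30.9 and 70.0 in Mono. All Mono values were dim and 3 of 5 RWV values were at 100 or above. RWV 1 fell within the Mono range, so the groups overlapped. The log2 difference was 0.55 ± 0.16 (limma adjusted p = 0.020). The bound, taken as for LY96, was 1.00-fold and so gives no least rise for TLR3. Measured means were 102.6 ± 29.6 in RWV and 53.3 ± 15.9 in Mono (SD, n = 5 each). Without Mono 1 TLR3 did not pass (adjusted p = 0.051), nor without both Mono 4 and RWV 3 (adjusted p = 0.078).

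MYD88, the adaptor that assembles receptor TIR domains with IRAK kinases, was measured by 2 spots. The brighter spot read 3215, 3347, 4954, 2789 and 3214 in RWV, against 1620, 1808, 2844, 1116 and 1845 in Mono. The dimmer spot read 628, 709, 1043, 493 and 504 in RWV, against 373, 409, 624, 162 and 301 in Mono. At both spots RWV 3 was the highest RWV array, Mono 3 the highest Mono array and Mono 4 the lowest, and Mono 3 overlapped the RWV range. The spots gave log2 differences of 0.94 and 0.82 (limma adjusted p over all spots 0.0078 and 0.047), and the gene gave 0.88 ± 0.25, or 1.84-fold (limma adjusted p = 0.018). Leaving out both Mono 4 and RWV 3 lowered the log2 difference to 0.54 (adjusted p = 0.039). Without normalisation between arrays the difference was 0.62 and did not pass (adjusted p = 0.056).

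TIRAP, the adaptor that bridges TLR2 and TLR4 to MYD88, had 2 spots and did not pass the test. Its first spot read 63.9, 118.3, 78.1, 110.2 and 72.6 in RWV, against 112, 101.4, 102.5, 123.7 and 106.7 in Mono, so that 3 RWV readings and 0 Mono readings were below 100. The other spot lay at 148.6 to 202.8 in RWV and 142.2 to 187.8 in Mono. Their log2 differences had opposite signs, -0.22 and 0.04, and the mean over both was -0.09 ± 0.10 (limma adjusted p = 0.58).

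**Figure D2:**
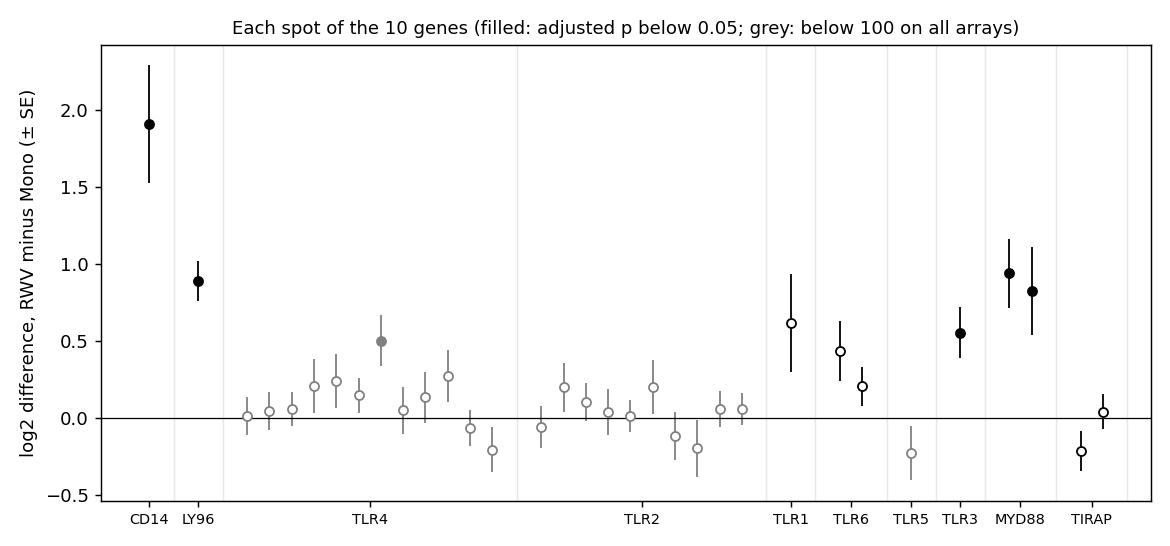
Log2 difference (RWV minus Mono, ± SE of the limma fit, 5 arrays a group) of each of the 33 spots, grouped by gene. Filled points have an adjusted p below 0.05 over all single-symbol spots, and grey points are below 100 on all 10 arrays. The filled points are CD14, LY96, TLR3, both MYD88 spots and 1 of the 12 TLR4 spots.

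Counted by spot, 6 of 33 passed as higher and 0 as lower, where 14% and 14.6% of all 31332 single-symbol spots did (28.6% in all). The CD14 spot, the LY96 spot and the 1 TLR4 spot that passed were separated between the groups with RWV higher, as were 10.1% of all such spots. Of the 33 spots 23 were below 100 on all arrays, against 28.6% of all such spots, 22 of them belonging to TLR2 and TLR4. Of the 330 single readings 83 were at 100 or above, 44 of them on RWV arrays and 39 on Mono arrays. The 1 TLR4 spot that passed was among the 23 dim spots. Leaving out each array in turn gave 3 to 5 spots higher, fewer than the 6 with all arrays.

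Some arrays deviated alike in most of the genes, and others did not. Among the 7 genes not dim throughout, Mono 4 was the lowest Mono array for 6. Of all genes, Mono 4 was the lowest Mono array for 28.2% and the highest for 30.1%. TIRAP was the exception, lowest on Mono 3. Without Mono 4 the log2 differences of the other 6 were all smaller, at 1.59 for CD14, 0.79 for LY96 and 0.68 for MYD88. They were 0.45 for TLR3, 0.35 for TLR1 and 0.22 for TLR6. CD14, LY96, MYD88 and TLR3 still passed the test. In RWV, array 3 was the highest for TLR1, TLR3 and MYD88 and the lowest for CD14. Of all genes, RWV 3 was the highest RWV array for 24.2% and the lowest for 25.3%. RWV 2 was also the highest for 3 of the 7, and for 22% of all genes. RWV 1 was the lowest for 4 of the 7, and for 17.4% of all genes. The 5th percentile of the deposited intensities was 8 to 16 on RWV arrays 1 to 3, 0 on RWV arrays 4 and 5, 15 to 20 on Mono arrays 1 to 3, and 2 and 4 on Mono arrays 5 and 4. Each set was therefore also compared by itself. For CD14 the log2 difference was 1.46 in arrays 1 to 3 and 2.60 in arrays 4 and 5, and for LY96 it was 0.67 and 1.26. For MYD88 the values were 0.76 and 1.07, and for TLR3 0.44 and 0.77. With 3 against 3 arrays only LY96 of the 10 genes passed the test, and with 2 against 2 none did, where 294 genes were higher and 356 lower in all. At an unadjusted limma p below 0.05, 4 of the 10 genes were higher with arrays 1 to 3, 3 with arrays 4 and 5, and 5 with all arrays, and 0 were lower in each.

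**Figure D3:**
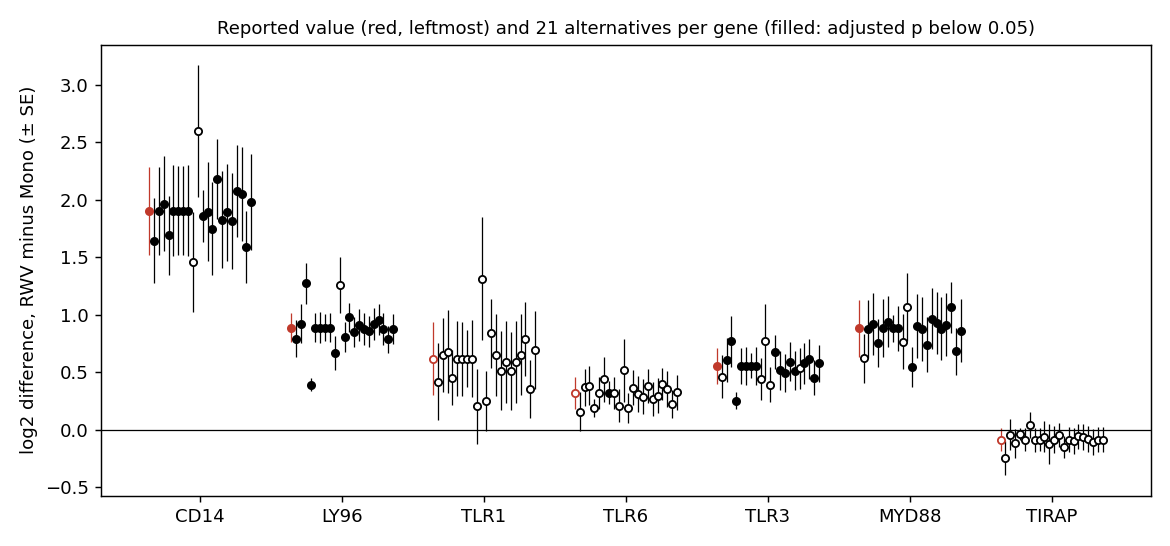
Log2 difference (RWV minus Mono, ± SE) of the 7 genes that were not dim throughout, as reported (red, leftmost) and under 21 alternative settings (black, to its right). Filled points have an adjusted p below 0.05. CD14 ran from 1.46 to 2.60, and TIRAP stayed near 0 and turned positive once.

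The genes with the most similar profiles were found by the root mean square difference over the 10 arrays between log2 values centred on each gene's mean, among 12220 genes averaging at least 100 in a group. For CD14 these were IFITM4P, KAZALD1 and MROH2A, at 0.17, 0.21 and 0.22, where the median gene was at 1.17. For MYD88 they were MALL, AACS and TUBAL3, at 0.12, 0.17 and 0.19, against a median of 0.66. For LY96 they were NAGLU, BACE2 and SSBP2, each at 0.13, against 0.54. For TLR3 they were ERCC5, DSG2 and CCDC159, at 0.11, 0.13 and 0.14, against 0.46. Of the 8 genes that flank the 4 higher genes in RefSeq, 1 was higher (TMCO6, next to CD14, log2 difference 0.61 ± 0.20, limma adjusted p = 0.033) and 1 lower (TMEM70, next to LY96, -0.61 ± 0.12, adjusted p = 0.0023). The 12 places beside the other 6 genes, where TLR1 and TLR6 flank each other, held 2 higher and 3 lower genes, and 30.1% of all genes passed in either direction. Neither gene flanking MYD88 passed the test.

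Around the receptors, 108 genes of 11 pathway lists were measured, of 114 listed. Of these 28 were higher and 6 lower, where 15% and 15.2% of all genes were, and 20 were dim on all arrays. The median log2 difference was 0.20, and 0.01 over all genes. Without normalisation between arrays 15 were higher and 6 lower. The lists were drawn up with earlier results of these data known, and are described by their counts and medians. The same shares of all genes, 15% and 15.2%, apply beside the count of each list below.

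Receptors and their carriers come first. Of the 4 other Toll-like receptors, TLR7 to TLR10, 0 passed the test and all were below 100 on all arrays. Of 8 lipid carriers and accessory receptors 2 were higher. ITGB2, the beta chain of the leukocyte integrins, averaged 325 ± 45.0 in RWV and 88.4 ± 40.9 in Mono (SD, n = 5 each), a log2 difference of 1.47 ± 0.19 (limma adjusted p = 0.00021). CD36, a scavenger receptor that presents diacylated lipids to TLR2 with TLR6, passed too, but its readings of 30.2 to 54.0 in RWV and 14 to 24.8 in Mono were all dim. The serum carrier of LPS, LBP, had a log2 difference of 0.69 ± 0.32 and did not pass (adjusted p = 0.14). Of 8 genes for receptor folding and trafficking 1 was higher and 1 lower. CNPY4, a co-chaperone of receptors, had a log2 difference of 0.75 ± 0.14 (adjusted p = 0.0021; 0.49 and adjusted p = 0.11 without normalisation between arrays), and RAB10, a small GTPase known in mouse macrophages for carrying TLR4 to the surface, fell by 0.65 ± 0.13 (adjusted p = 0.0027). Of 8 genes of the interleukin-1 receptor family, which shares MYD88, IL18R1 was higher (0.50 ± 0.14, adjusted p = 0.017). Averaged over its 2 spots, it ran from 83.8 to 133.6 in RWV and from 45.5 to 97.6 in Mono, below 100 on every Mono array. Both spots were dim on 3 of 5 Mono arrays. IL18R1 did not pass with its brightest spot alone, nor without normalisation between arrays (0.40, limma adjusted p = 0.097).

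Among signalling genes the directions were mixed. Of 3 other TIR adaptors measured TICAM2, which links TLR4 to the TRIF adaptor, was higher, at 755 ± 137 in RWV and 420 ± 94.9 in Mono (log2 difference 0.78 ± 0.16, limma adjusted p = 0.0033). Without normalisation between arrays TICAM2 did not pass (adjusted p = 0.051). TRIF itself (TICAM1) did not pass (0.27 ± 0.10, adjusted p = 0.060). Of 14 genes between the MYD88 complex and the kinase TAK1, 3 were higher and 3 lower. The 3 higher genes were the Pellino ubiquitin ligases, which act on IRAK kinases: PELI2 at 1710 ± 294 in RWV and 434 ± 253 in Mono (2.01 ± 0.31, adjusted p = 0.00055), PELI1 (0.92 ± 0.26) and PELI3 (0.86 ± 0.15). PELI3 did not pass without normalisation, at 0.58 (adjusted p = 0.10). The 3 lower genes were the ubiquitin ligase TRAF3 and the partners of an ubiquitin-conjugating enzyme, UBE2N and UBE2V1, which fell by 0.62 ± 0.14, 0.54 ± 0.11 and 0.29 ± 0.10. The kinases IRAK1 and IRAK2 and the ligase TRAF6 did not pass the test (adjusted p 0.47, 0.80 and 0.17).

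Of 16 genes of the IKK, NF-kB and MAPK steps 1 was higher and 1 lower, both of them inhibitors that hold NF-kB in the cytoplasm. NFKBIA had a log2 difference of 0.86 ± 0.23 and NFKBIB fell by 0.62 ± 0.19 (limma adjusted p = 0.014 and 0.025). NFKBIB lost its call under 7 of 21 alternatives, among them scaling to the 75th percentile and leaving out single arrays. NFKBIA did not pass without normalisation or without both Mono 4 and RWV 3. The log2 difference of NFKBIA was 1.21 in arrays 1 to 3 and 0.39, not past the test, in arrays 4 and 5. Of 8 genes of the TRIF branch 4 were higher and 1 lower. IRF7, a transcription factor of type I interferon genes, averaged 1346 ± 233 in RWV and 413 ± 85.8 in Mono (log2 difference 0.98 ± 0.10, adjusted p = 7.5e-05). That log2 value averages 2 unlike spots, and the brighter spot of IRF7 alone gave 1.71. The adaptor TRADD and the factor IRF5 had differences of 0.73 ± 0.15 and 0.65 ± 0.15 (adjusted p = 0.0040 and 0.0054), and the kinase TBK1, which activates IRF3, fell by 0.31 ± 0.10. TRADD, IRF5 and TBK1 did not pass without normalisation between arrays. TBK1 also lost its call with scaling to the 75th percentile and with 16 added before the logarithm.

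Of 14 negative regulators 3 were higher and 0 lower, where 15% and 15.2% of all genes were. ATF3, a repressor induced by TLR signalling and by many stresses, averaged 10836 ± 6543 in RWV and 773 ± 836 in Mono, a log2 difference of 2.81 ± 0.46 over its 3 spots (limma adjusted p = 0.00077). The brightest spot of ATF3 alone gave 4.25, arrays 1 to 3 gave 3.58, and arrays 4 and 5 gave 1.52, not past the test (adjusted p = 0.26). The phosphatase DUSP1 (0.96 ± 0.31, adjusted p = 0.036) and the inhibitory receptor SIGIRR (0.38 ± 0.11, adjusted p = 0.024) passed too. DUSP1 lost its call under 10 of 21 alternatives, and its log2 difference was 1.56 in arrays 1 to 3 and 0.04 in arrays 4 and 5. SIGIRR lost its call under 8, with a difference of 0.08 without normalisation between arrays. TNFAIP3 and TOLLIP, which restrain TRAF6 and IRAK1, did not pass (adjusted p 0.74 and 0.078).

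Of the 5 genes listed for LPS sensing in the cytosol, a route that needs no Toll-like receptor, 4 were higher and 0 lower, with a median log2 difference of 2.13. Over all genes 15% were higher and 15.2% lower. CASP4, the caspase that binds LPS directly, averaged 9300 ± 1664 in RWV and 2157 ± 1336 in Mono (2.29 ± 0.36, limma adjusted p = 0.00062). CASP5, its close paralogue, averaged 1779 ± 329 in RWV and 420 ± 270 in Mono (2.13 ± 0.33, adjusted p = 0.00060). The pair is alike in sequence, and cross-hybridisation was not tested. All 5 RWV arrays were above all 5 Mono arrays for both, as in 10.9% of all genes. GBP2, a GTPase of the family that coats bacteria, had 199 to 1440 in RWV and 17.9 to 151 in Mono, dim on 4 of 5 Mono arrays, and the pore-forming GSDMD had a log2 difference of 0.84 ± 0.20 (adjusted p = 0.0073). Without normalisation between arrays 3 of the 5 genes were higher, and GSDMD was not among them.

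Of 20 measured genes that TLR signalling is known to induce 8 were higher and 0 lower, where 15% and 15.2% of all genes were. The 8 were CXCL8, PTGS2, CXCL2, IL1B, CXCL3, LCN2, CXCL1 and IL23A. The chemokine CXCL8 read 1614, 2243, 1237, 899 and 3225 in RWV, against 58.5, 13.3, 42.9, 65.7 and 316 in Mono, dim on 4 of 5 Mono arrays. The prostaglandin synthase PTGS2 ran from 6141 to 16879 in RWV and from 275 to 5192 in Mono, and CXCL2 from 4863 to 12993 in RWV and from 938 to 4426 in Mono. In arrays 1 to 3 the log2 differences of CXCL8, PTGS2 and CXCL2 were 3.97, 2.32 and 2.90, all past the test. In arrays 4 and 5 they were 3.30, 2.64 and 1.59, none past the test. Without Mono 4 the difference of PTGS2 was 1.82, past the test, against 2.45 with all arrays. IL6 and TNF did not pass the test (limma adjusted p 0.58 and 0.47). Of the 20 genes 6 were below 100 on all arrays.

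**Figure D4:**
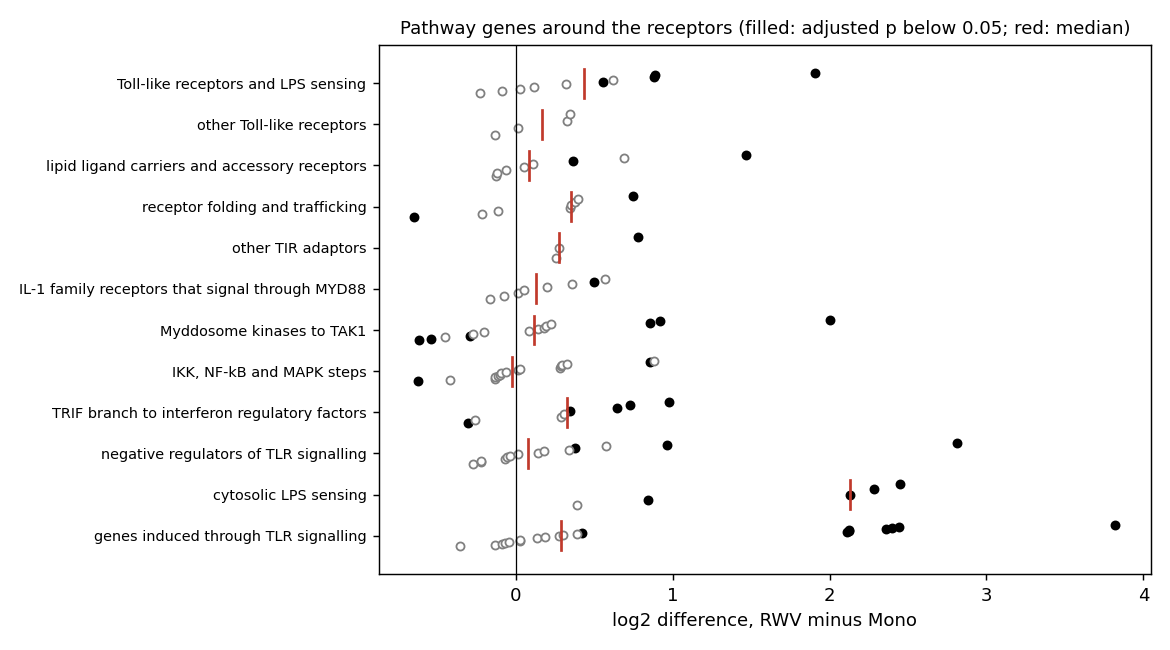
Log2 difference (RWV minus Mono, 5 arrays a group) of every measured gene of the 10-gene set and of the 11 pathway lists around it. A point is a gene, filled where the limma adjusted p is below 0.05, and the red bar is the median of the list. The points furthest to the right are CXCL8 at 3.82 and ATF3 at 2.81, and CD14 stands at 1.91 in the top line.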

How the data were processed

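The intensities deposited by the authors are linear spot values from single-colour arrays of Cy3-labelled total RNA, per the labels. They include values below 0, and their medians differ between arrays. For the scanner, the extraction software and the background step, the sources used here give no name. Groups came from the sample titles, because the labels' growth protocol names RWV for all samples. Platform annotation gave 1 symbol to 31332 of 45220 spots, and 31291 of these matched RefSeq (GRCh38.p14) by gene number. Intensities were quantile normalised over 10 arrays with limma 3.58.1 in R 4.3.3, floored at 0 and taken to log2 after adding 50. The log2 values of a gene's spots were averaged. The group difference was tested by lmFit and eBayes (two-sided), and p-values were adjusted by Benjamini-Hochberg across all genes, or all single-symbol spots, with a threshold of 0.05. The fit was tested on simulated data. The number of arrays limits the precision. Named genes are the 10 members, up to 3 called genes a list with the largest change, or the lowest p, and the 3 most similar genes; TRAF3, UBE2N, UBE2V1, TBK1, GSDMD, LBP, TICAM1, IRAK1, IRAK2, TRAF6, TNFAIP3, TOLLIP, IL6, TNF, IL1B, CXCL3, LCN2, CXCL1, IL23A, TMCO6, TMEM70 and cell type markers were added after their values were seen. Members, lists, tests and alternatives were chosen with earlier results of these data known. Promoters are RefSeq's. Figures used matplotlib 3.10.9 and Python 3.11.15.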

Additional observations from a re-analysis of the deposited data

Results flagged for a closer look

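Of the 29 named genes that were not dim on all arrays, each group of 5 arrays was searched for a value that stands apart by Dixon's gap test, 58 groups in all. Only CXCL2 in RWV was found, on array RWV 4, which read 4863 where the other RWV arrays read 9624 to 12993. Chance gives such a value in about 1 of 20 groups. The 7 Toll-like receptor and LPS-sensing genes searched had no such array, and TLR2, TLR4 and TLR5 were not searched.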

How the results depend on the processing

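Over 21 alternatives the 7 members not dim on all arrays gave 147 values, of which 134 kept their direction and side of the threshold, 11 lost the call, 1 gained it (TLR6 with a replicate block) and 1 turned sign. TIRAP (-0.09) turned to 0.040 with the brightest spot alone (adjusted p = 0.836). Without normalisation between arrays 2 members (CD14 and LY96), 2 member spots and 15 pathway genes were higher, while over all genes rises numbered 1037 and falls 2518, 29.2% of calls being rises against 49.6% as reported, and the median of all genes shifted to -0.13. Scaling to the 75th percentile left 3 pathway genes lower. With replicates 1 to 3 only, 1 member and 1 spot were higher, 2 pathway genes lower, and 1524 genes higher and 1647 lower. With replicates 4 and 5 only, 0 members, 0 spots and 4 pathway genes were higher, 0 pathway genes lower, and 294 genes higher and 356 lower. Both subsets hold fewer arrays. With Mono 4 and RWV 3 left out, 3 spots were higher. Same-numbered arrays deviated together in 3 of 5 pairs (correlation over 0.1; range -0.15 to 0.22, own number best for 5 of 10 arrays), a hint from the data and not the design. With the replicate block 5 members were higher, TLR6 among them (adjusted p = 0.048), and 2733 and 2690 genes were called. Leaving out each array in turn gave 3 to 4 members higher and 0 lower, 3 to 5 spots higher and 0 lower, 25 to 31 pathway genes higher and 3 to 6 lower, and 2199 to 2811 genes higher and 2249 to 2826 lower. Spots fell to 3 without RWV 2, RWV 3, Mono 1 or Mono 4, and the pathway falls to 3 without RWV 4, Mono 1 or Mono 2. Other causes were not tested. Readings below 100 limit LY96, TLR3, TLR2, TLR4 and TLR5.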
